A study of Mus musculus with 106 samples.

Results

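The sites described here are places in the mouse liver genome where the bile acid receptor FXR was listed both with its agonist and with vehicle, away from the Foxa2 peaks found with the same agonist. They were the peaks of the GW4064 FXR list of WT liver that overlapped a vehicle FXR peak of WT liver by at least 1 base and overlapped no peak of the GW4064 Foxa2 list. Of the 22705 peaks in the GW4064 list, 449 overlapped a vehicle peak, which is 1.98% of the list, and 381 (1.68%) overlapped a Foxa2 peak. Of the 449, 296 (65.9%) met both conditions and the other 153 lay on a Foxa2 peak.

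FXR (Nr1h4) is a nuclear receptor that is activated by bile acids and, in hepatocytes, lowers their synthesis and raises their export. It binds DNA with a partner, RXR, most often at the hexamer AGGTCA followed, after a single base, by its inverted copy TGACCT (an inverted repeat called IR-1). Receptors of this class can sit on DNA without ligand. GW4064 is a synthetic FXR agonist, and Foxa2 is a forkhead factor that can bind closed chromatin and open it.

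The study set livers of Foxa2-KO mice beside livers of WT mice. The Foxa2-KO FXR groups had GW4064 or its vehicle for 4 h, and the WT groups the same, with 2 samples and 1 peak list a group and an age of 8 to 12 weeks. Regions of gained accessibility came from ATAC-seq after GW4064 against vehicle, with 3 samples an arm in Foxa2-KO and in WT liver. In WT liver alone they also came after the LXR agonists GW3965 and T09, with 2 samples an arm. Foxa2 ChIP-seq covered WT liver after GW4064, GW3965 or T09 and after the vehicles, with 1 sample a group, which for GW3965, T09 and one of the vehicles pools 3 replicates in 1 file. The ATAC and Foxa2 groups were likewise treated for 4 h, at 8 to 12 weeks of age. LXR and PPAR ChIP-seq of WT and KO livers at 3 months of age, in 14 lists, served to find regions listed for other receptors. The LXR groups had GW, T09 or vehicle for 4 h, with 1 sample a group in WT and 3 in KO. Titles of the LXR samples say KO and do not name the deleted gene. The PPAR groups had GW3965, T09, GW4064 or vehicle for 4 h, with 2 samples a group. Labels of the PPAR and RNA samples spell the mutant as Foxa2loxP/loxP;Alfp.Cre, in which albumin and alpha-fetoprotein control elements drive Cre in hepatocytes and bile duct cells, and labels of the FXR and ATAC samples say Foxa2-KO only and name no strain. The RNA labels call the control animals littermates. The chromatin came from whole liver, so fewer cells with a bound site and weaker binding in each cell cannot be told apart. Read depth is unknown from these lists, and no comparison below has a test over animals.

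Sequence was at hand for promoter windows of 300 bases, and 29 sites reached into one. The 6 stretches below are the bases of such windows under the GW4064 FXR peak, up to the start site, read on the strand of the gene (RefSeq, GRCm38.p6). The 6 were picked from the 29 for the letters they hold and do not stand for the rest. Within the windows, 7 of the 29 sites held an IR-1 of up to 3 mismatches under the peak. An exact AGGTCA or GGGTCA hexamer on either strand was under the peak at 13. Capitals mark a stretch of 13 bases within 3 mismatches of the IR-1 (AGGTCA, any base, TGACCT), or in Usp2, which has none, an exact GGGTCA hexamer.
Steap3: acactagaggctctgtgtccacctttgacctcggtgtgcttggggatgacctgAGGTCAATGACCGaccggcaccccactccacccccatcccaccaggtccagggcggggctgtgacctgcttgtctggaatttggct
Slc51b: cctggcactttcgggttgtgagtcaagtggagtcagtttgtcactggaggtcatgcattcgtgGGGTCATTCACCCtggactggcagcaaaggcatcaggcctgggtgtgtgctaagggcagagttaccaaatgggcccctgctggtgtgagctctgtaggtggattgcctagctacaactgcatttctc
Chic2: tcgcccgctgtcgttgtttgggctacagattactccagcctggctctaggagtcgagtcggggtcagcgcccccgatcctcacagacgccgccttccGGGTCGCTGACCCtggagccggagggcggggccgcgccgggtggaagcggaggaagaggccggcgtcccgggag
Fasn: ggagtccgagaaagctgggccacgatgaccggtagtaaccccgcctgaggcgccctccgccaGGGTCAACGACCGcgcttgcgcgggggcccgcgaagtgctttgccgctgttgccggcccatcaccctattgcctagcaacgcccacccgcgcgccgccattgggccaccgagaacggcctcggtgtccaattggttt
Mpc2: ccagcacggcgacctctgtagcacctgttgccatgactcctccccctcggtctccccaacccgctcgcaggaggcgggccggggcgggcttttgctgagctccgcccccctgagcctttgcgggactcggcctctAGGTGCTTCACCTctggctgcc
Usp2: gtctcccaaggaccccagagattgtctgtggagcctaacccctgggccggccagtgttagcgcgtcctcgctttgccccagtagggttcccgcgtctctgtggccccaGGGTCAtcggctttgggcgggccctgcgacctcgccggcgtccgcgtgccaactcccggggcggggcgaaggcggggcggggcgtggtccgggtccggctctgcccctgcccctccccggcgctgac
The stretch of Steap3, a ferrireductase gene, lay at chr1:120270291-120270429 and held the closest IR-1, with 1 mismatch. Slc51b encodes a subunit of the exporter that moves bile acids out of the hepatocyte into blood, and its stretch lay at chr9:65422834-65423023. Those of Chic2 at chr5:75044721-75044891, of the fatty acid synthase gene Fasn at chr11:120824599-120824797 and of the pyruvate carrier gene Mpc2 at chr1:165461103-165461259 had 3 mismatches, as had Slc51b. The stretch of Usp2, a ubiquitin protease gene with daily rhythm in liver, lay at chr9:44084685-44084919.

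The windows under these sites were searched for receptor hexamers on either strand and set beside all promoter windows. GGGTCA on either strand was in 11 of 32 windows (34.4%), against 13.7% of all 32851 windows. AGGTCA on either strand was in 9 of 32 (28.1%), against 16.3% of all windows, and may overlap an IR-1. TGAACT on either strand was in 4 of 32 (12.5%), against 14.0%. An IR-1 with up to 3 mismatches, which reads the same on both strands, was in 8 of 32 windows (25%), against 11.4%, and with up to 1 mismatch in 1 of 32 (3.12%), against 0.0822%. The forkhead letters TGTTTAC were in 1 of 32 windows (3.12%), against 3.65%, and TGTTTGC in 1 of 32 (3.12%), against 5.07%. These letters are a description of few windows, some of which share a peak, and the 10 sites on chromosome 18 were not searched.

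The sites stood high in the GW4064 list. The WT lists hold positions in an order but no score, so the place of an entry was used as its rank. This assumes that the lists run from strongest to weakest, which could not be checked without a score. The 296 sites had places between 13 and 22347 with a median of 368, and 168 of them were among the first 500 entries, where they made up 33.6%. Their peaks were 5 to 5681 bp wide with a median of 208 bp, against a median of 58 bp over all 22705 peaks. The sites were chosen by their peaks in the GW4064, vehicle and Foxa2 lists of WT liver, so these values are a description.

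**Figure D1:**
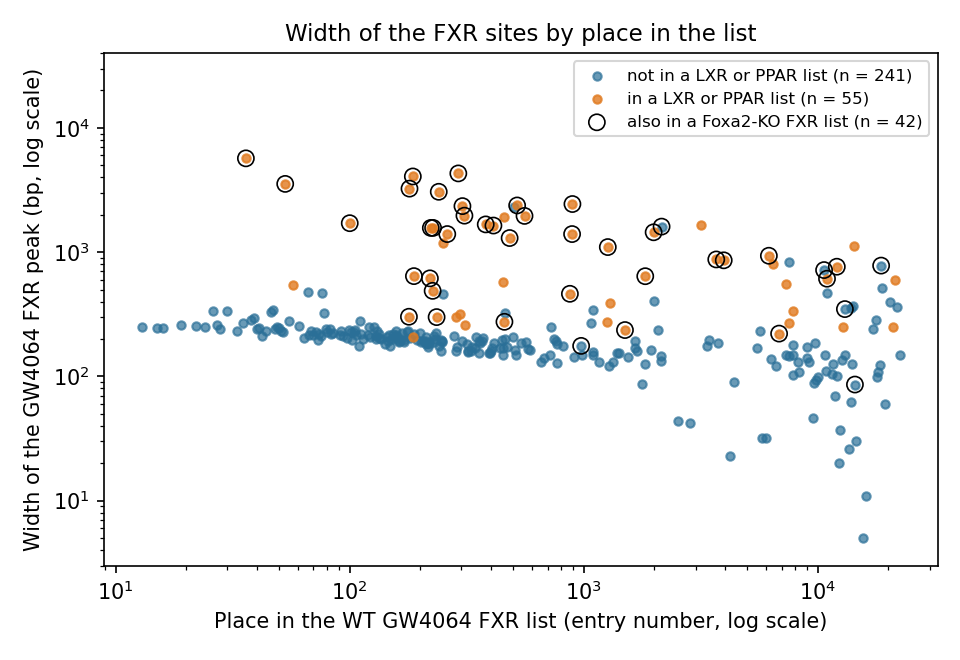
Width of each of the 296 GW4064 FXR peaks (y axis, bp, log scale) against its place in the WT GW4064 list (x axis, log scale), each point being 1 site; orange points were also in an LXR or PPAR list and black rings mark sites in a Foxa2-KO FXR list. Most blue sites form a narrow band around their median of 193 bp, and most ringed sites are orange and lie above it.

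The sites were of 2 kinds, split by whether another receptor was listed at the same place. A peak of at least 1 LXR or PPAR list covered 55 sites (18.6%). The share was higher, 35.9%, at the 153 sites on Foxa2 peaks, and was 1.58% over all GW4064 FXR peaks. The LXR list of WT liver after GW held 27 (9.12%, against 0.625%), and the PPAR list of WT liver after GW4064 also 27 (9.12%, against 0.427%). The 55 were wide, with a median of 859 bp, and 24 of them lay in the 102 regions that were listed for all 4 antibodies. The remaining 241 sites had a median width of 193 bp and places from 13 to 22347, with 139 in the first 500 entries. In all, 26 of the 296 (8.78%) lay in a region listed for all 4 antibodies. This held for 31.4% of the 153 sites on Foxa2 peaks and for 0.467% of all GW4064 FXR peaks. What sets the 55 apart was not tested.

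With vehicle the same places gave peaks of nearly the same position. The centres of the GW4064 and vehicle peaks were a median of 18.25 bp apart, and 172 of 296 pairs (58.1%) lay within 25 bp. The vehicle peaks had a median width of 171.5 bp, and the GW4064 peak was the wider at 209 sites and the narrower at 84. Places in the vehicle list ran from 13 to 7829 with a median of 798.5, and 100 sites were in the first 500 entries of both lists. Since both lists chose the sites, these values describe them and no test was made. The lists were not scaled to each other here, so a wider peak with GW4064 is not a measure of more FXR.

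**Figure D2:**
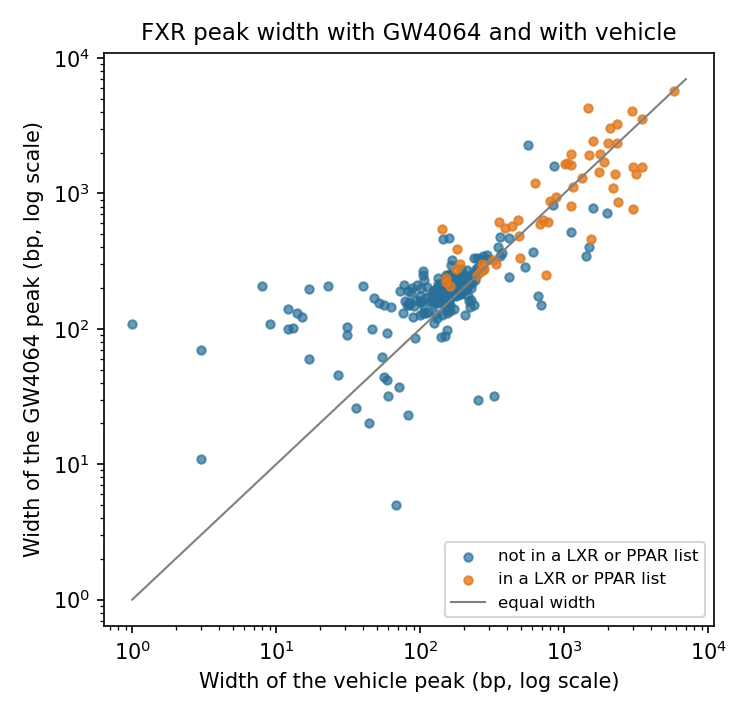
Width of the GW4064 peak (y axis, bp, log scale) against width of the vehicle peak at the same site (x axis, bp, log scale), each point being 1 of 296 sites, with the line of equal width in grey. At 209 sites the point lies above the line and at 84 below it, and most of the widest points under both treatments are orange (in an LXR or PPAR list).

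The first 20 sites outside regions listed for all 4 antibodies were a compact group. Their GW4064 peaks were 211 to 344 bp wide (median 251 bp), and their vehicle peaks 95 to 292 bp (median 220 bp). At 19 of 20 the GW4064 peak was the wider, and centres differed by at most 39 bp. At 19 of 20 the vehicle peak was also in the first 500 entries of its list, the exception being the peak in Mfsd4b4 at place 3384. Genes below name the protein-coding gene a site lies in, or the nearest one, and do not say which gene the site acts on.

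The receptor genes Nr0b2 and Nr1i2 were among these 20. Nr0b2, which encodes SHP, a repressor of bile acid synthesis and a classical FXR target, had a site 710 bp from the gene at chr4:133557396-133557739. Its peak was 344 bp wide at place 47 with GW4064 and 274 bp wide at place 102 with vehicle. Nr1i2 encodes the xenobiotic receptor PXR and held a site at chr16:38288929-38289174, 246 bp wide at place 41 with GW4064 and 197 bp wide at place 360 with vehicle. The Nr1i2 site was in no other list of the series.

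Zfp36, Il1r1, Ifih1, Fcna, Klf9 and Gadd45g also named sites of the 20. Zfp36 (tristetraprolin, which speeds decay of inflammatory transcripts) had a site 97 bp from the gene, 335 bp wide at place 30 with GW4064 and 237 bp wide at place 48 with vehicle. Il1r1, an interleukin 1 receptor gene, had one 42666 bp away at place 33 with GW4064 and place 23 with vehicle. The sensor of viral RNA Ifih1 and the lectin Fcna had sites near their starts, at places 35 and 46 with GW4064 and 66 and 60 with vehicle. Klf9, a glucocorticoid-responsive transcription factor gene, had a site with its centre at -5439 bp from the start, at place 16 with GW4064 and 214 with vehicle. Gadd45g, a stress-inducible gene, was nearest to a site 173520 bp away, at place 26 with GW4064 and 69 with vehicle.

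Slc6a6 encodes the taurine transporter, whose substrate is used to conjugate bile acids, and named 3 sites, 2 of them in the gene and 1 at a distance of 23685 bp. The first of them in the list lay in the gene at chr6:91719112-91719353 (place 40 with GW4064, place 100 with vehicle). The other two were 205 bp wide at place 181 and 121 bp wide at place 1280 with GW4064, against 111 bp at place 547 and 130 bp at place 908 with vehicle. Dio3, which encodes the enzyme that inactivates thyroid hormone, was the nearest gene to a site 306503 bp away at place 38 with GW4064 and 47 with vehicle. Ak4, a mitochondrial adenylate kinase gene, and Pex2, a peroxisome assembly gene, were named by sites at places 27 and 39 with GW4064, against 18 and 265 with vehicle. The rest of the 20 were Usp2, Zfp292, Arhgef7, Tfap2c, Gatd1, Agap1, Wwc2 and Mfsd4b4. Usp2 and Zfp292, both in promoter windows, had places 13 and 15 with GW4064, against 17 and 34 with vehicle. Arhgef7 and Agap1, which encode regulators of small GTPases, had places 19 and 28 with GW4064, against 13 and 33 with vehicle. None of these 20 sites was wider than 344 bp or in an LXR or PPAR list. This depends on their choice, which left out regions listed for all antibodies. The Olfr161 site at place 36, left out in this way, was 5681 bp wide and in LXR and PPAR lists.

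A site lay in or within 10 kb of 3 of 36 FXR target genes (8.33%), against 1.12% of all 21896 protein-coding genes. The 3 were Nr0b2, Slc51b and Scarb1, the receptor for high density lipoprotein. The Slc51b peak was 227 bp wide at place 104 with GW4064 and 174 bp at place 142 with vehicle, and the Scarb1 peak was 203 bp at place 370 with GW4064 and 151 bp at place 2478 with vehicle. With GW4064 peaks of any kind counted, 20 of the 36 genes (55.6%) had one, against 30.5% of all genes. Of 27 bile acid genes 2 had a site, which were Slc51b and Akr1d1, the reductase that shapes the bile acid ring. The Akr1d1 site was 460 bp wide at place 251 with GW4064 and 144 bp at place 451 with vehicle.

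Of 29 LXR target genes 3 (10.3%) had a site, against 1.12% of all protein-coding genes, namely Fasn, the lipogenic regulator Thrsp, and Nr0b2, which is in both lists. Of 34 fatty acid oxidation genes 1 (2.94%), Acads, had a site, which lies nearest to Sppl3. At the share of all genes, lists of this length would hold less than 1 gene with a site, so the counts of 0 that follow cannot be told from it. None of 24 hepatocyte identity genes and none of 16 genes of gluconeogenesis and amino acid catabolism had a site. No marker gene of cholangiocytes (0 of 10), Kupffer cells (0 of 12), stellate cells (0 of 12) or sinusoidal endothelium (0 of 12) had one. Peak lists do not measure expression, so the tissue label could not be checked from markers here.

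A protein-coding gene held 145 of the 296 sites (49.0%), against 45.8% of the 153 sites on Foxa2 peaks and 36.7% of all GW4064 peaks. Promoter windows held 29 (9.8%), against 5.23% of sites on Foxa2 peaks and 0.749% of all GW4064 peaks, and 26 of these 29 were among the first 500 entries. Within 1 kb of a start site lay 39 (13.2%), against 4.58% of the 153 sites on Foxa2 peaks and 1.43% of all GW4064 peaks. Within 10 kb the share was 29.7%, against 28.1% of sites on Foxa2 peaks and 10.9% of all, and within 100 kb it was 68.9%, against 69.3% of sites on Foxa2 peaks and 45.0% of all. Among peaks of 100 bp or more that were in neither the vehicle nor the Foxa2 list, 2.35% lay within 1 kb. No test of these shares was made, and 10 sites without a start site in the table count as farther away.

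**Figure D3:**
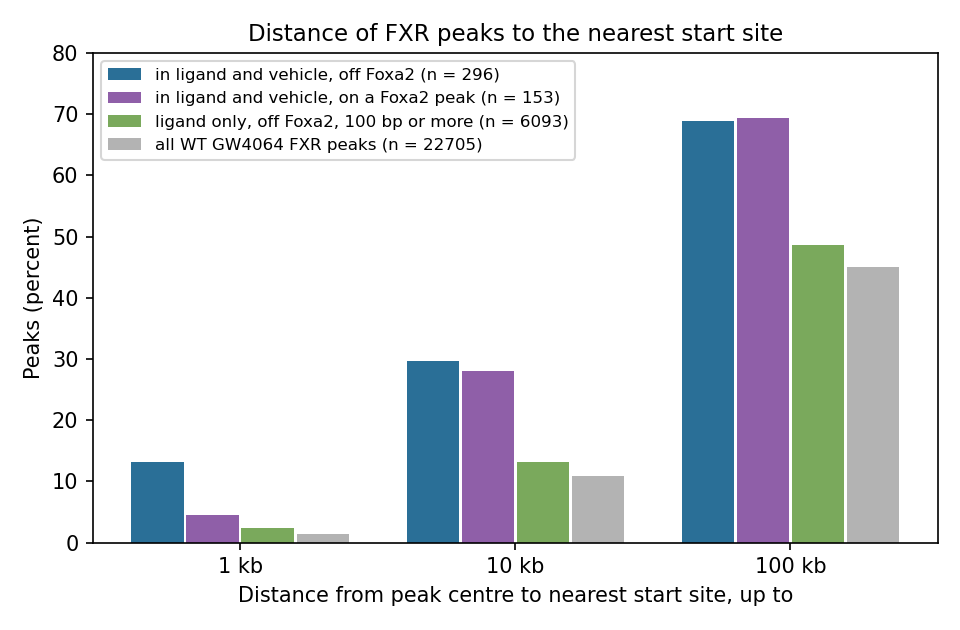
Percent of FXR peaks (y axis) with their centre within 1, 10 or 100 kb of the nearest start site in the RefSeq window table (x axis), for the 296 sites in ligand and vehicle off Foxa2 peaks, the 153 on Foxa2 peaks, 6093 peaks with ligand only off Foxa2 peaks that are 100 bp or wider, and all 22705 peaks. At 1 kb the sites off Foxa2 peaks stand at 13.2% and those on Foxa2 peaks at 4.58%, and at 100 kb both stand near 69%.

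Of the promoter sites, those of Plin5, Mpc2 and Steap3 are given here, chosen after their values were seen. Plin5, a lipid droplet protein gene, had a peak of 223 bp at place 234 with GW4064 and 165 bp at place 576 with vehicle. Mpc2, a subunit of the mitochondrial pyruvate carrier, had 238 bp at place 105 with GW4064 and 133 bp at place 4170 with vehicle. Steap3 had 2 sites, 139 bp and 150 bp wide at places 6320 and 13089 with GW4064, against 150 bp and 153 bp at places 866 and 5830 with vehicle. Places in lists of unequal length, 22705 and 7883 peaks, cannot show whether binding changed between the treatments.

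In Foxa2-KO liver the FXR lists held few of the 296 sites. The GW4064 list of Foxa2-KO liver covered 41 (13.9%, exact 95% interval for counting alone 10.1% to 18.3%), against 0.551% of all GW4064 FXR peaks of WT. The vehicle list of Foxa2-KO liver covered 20 (6.76%, interval 4.18% to 10.2%), against 0.405%. Either list held 42 (14.2%), against 0.744%. Many of these sites came in runs, and the intervals, which treat sites as separate, are too narrow for that. Without the regions listed for all 4 antibodies the shares were 6.3% in the GW4064 list and 2.59% in the vehicle list. The 42 were mostly wide peaks at places where other receptors were listed too: 34 were over 400 bp, 36 were in an LXR or PPAR list, and the median width was 1198 bp. A wide peak has more bases that can overlap another list. Of the 202 sites of 120 to 400 bp that were in no LXR or PPAR list, 2 (0.99%) were in a Foxa2-KO list.

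The split by kind was large. Of the 55 sites in an LXR or PPAR list, 36 (65.5%) were in a Foxa2-KO FXR list, and of the other 241 sites 6 (2.49%). Among the 139 sites of the second kind in the first 500 entries the number was 0. None of the 29 promoter sites was in a Foxa2-KO list, and none of the first 20 sites outside regions listed for all antibodies. That filter left out the Olfr161 site at place 36, which was in the GW4064 list of Foxa2-KO liver. The count for the first 20 thus depends on how they were chosen. Over all GW4064 FXR peaks of WT the share was 0.744%, so counts of 0 in groups of this size cannot be told from it. Nr0b2, Slc51b, Scarb1, Akr1d1 and Nr1i2 sites, like most FXR peaks of WT liver, were in neither Foxa2-KO list.

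The same was seen at sites on Foxa2 peaks. There, 42 of the 55 sites in an LXR or PPAR list (76.4%) were in a Foxa2-KO FXR list, and 0 of the other 98. Of the 164 sites off Foxa2 peaks that were in none of the 5 Foxa2 lists and in no LXR or PPAR list, 3 (1.83%) were in a Foxa2-KO list. Of all GW4064 FXR peaks of WT liver, 0.744% were in either Foxa2-KO list. The 0 of 98 and 3 of 164 are near that share, so absence from these lists does not set these sites apart. The Foxa2-KO lists were shorter, with 3901 peaks after GW4064 and 4284 after vehicle, against 22705 and 7883 in WT liver, and 130 of the 3901 (3.33%) overlapped the WT GW4064 list. Of the same 3901, 74 overlapped the Foxa2-KO vehicle list. The largest q of the Foxa2-KO lists was 0.015, while the WT lists give no q. Whether depth or threshold differed between the genotypes was not tested, and a site missing from a list is not shown to be unbound.

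Many of the sites in the Foxa2-KO lists came in runs of neighbouring peaks. A run of 7 sites spanned chr16:3242873-3279705, nearest to the olfactory receptor gene Olfr161, and all 7 were in the GW4064 list of Foxa2-KO liver and in an LXR or PPAR list. Its widest peak was 5681 bp at place 36 with GW4064 in WT liver and 5772 bp at place 19 with vehicle. The authors' fold over input for that site was 1.965 in Foxa2-KO liver after GW4064. Another run of 7 sites spanned chr4:121995849-122036918 near Gm10573, with 6 in the GW4064 list of Foxa2-KO liver and all 7 in an LXR or PPAR list. A run of 4 sites spanned chr4:147507085-147521065 near Zfp982, a zinc finger gene, with 3 in that list. Over the sites, the authors' fold in the Foxa2-KO GW4064 list was 1.479 to 12.19 with a median of 1.994, against a median of 13.797 over all peaks of that list. In the Foxa2-KO vehicle list it was 1.388 to 8.082 with a median of 2.113. Peaks of the Foxa2-KO GW4064 list had a median width of 40 bp and were not matched to the sites by width. A lower fold is thus not shown to be weaker binding. Sites stood at both ends of that list, with 1 near Vmn1r2 at place 7 (q of 1.85e-19) and 1 near Aasdhppt at place 3866 (q of 0.015). Both sites in Mup5, a major urinary protein gene of a repeated family, were 3058 and 1397 bp wide and fell on 1 peak of the Foxa2-KO GW4064 list, with a fold of 1.634. Sites near Hsf2, a heat shock factor gene, and in the zinc finger gene Zfp981 were 4063 and 4298 bp wide with folds of 1.883 and 1.897. Reads of repeated families can be split between copies, so these values are uncertain. Narrower sites lay near Map3k7, the kinase TAK1 (300 bp), and Rpp21, a subunit of RNase P (488 bp), with folds of 4.262 and 1.627. The highest fold, 12.19, belonged to a 302 bp site near Gm5373 at place 179 with GW4064 in WT liver.

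The 6 sites in a Foxa2-KO list and in no LXR or PPAR list were near Desi1, 4933402N22Rik, Zfp982 (2 sites), Kcnt2 and Gm39469. Their places with GW4064 in WT liver ran from 974 to 18628. The Desi1 site, 176 bp wide, had a fold of 3.747 in Foxa2-KO liver after GW4064. The Kcnt2 site was in the Foxa2-KO vehicle list alone, with a fold of 6.045.

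A part of the sites lay in chromatin listed as gaining accessibility with GW4064. Regions gained after GW4064 covered 29 sites in Foxa2-KO liver (9.8%, interval 6.66% to 13.8%) and 69 in WT liver (23.3%, interval 18.6% to 28.6%), against 1.17% and 1.54% of all GW4064 FXR peaks in the same lists. The sites gained in Foxa2-KO liver and not in WT numbered 18, those gained in WT and not in Foxa2-KO 58, and those gained in both 11 (3.72%), against 0.181%. The Foxa2-KO list held 82561 regions over 19.4 Mb, against 60528 regions over 20.8 Mb in WT. Each came from 1 comparison with no list per animal, so the difference between the genotypes has no test. With q of 0.01 or less the Foxa2-KO share was 4.05%, and the WT list gives no q.

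The shares were also taken at sites on Foxa2 peaks. Of the 153, 17 (11.1%) were in regions gained in Foxa2-KO liver and 36 (23.5%) in regions gained in WT liver. Without those in an LXR or PPAR list the shares were 8.71% in Foxa2-KO liver and 26.6% in WT liver for 241 sites off Foxa2 peaks, against 4.08% in Foxa2-KO liver and 22.4% in WT liver for 98 sites on them. Peaks off Foxa2 with ligand only and 100 bp or more wide had 1.62% in Foxa2-KO liver and 1.89% in WT liver. Among the first 500 entries, 28.6% of the 168 sites and 8.38% of 191 ligand-only peaks off Foxa2 were in regions gained in WT liver.

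**Figure D4:**
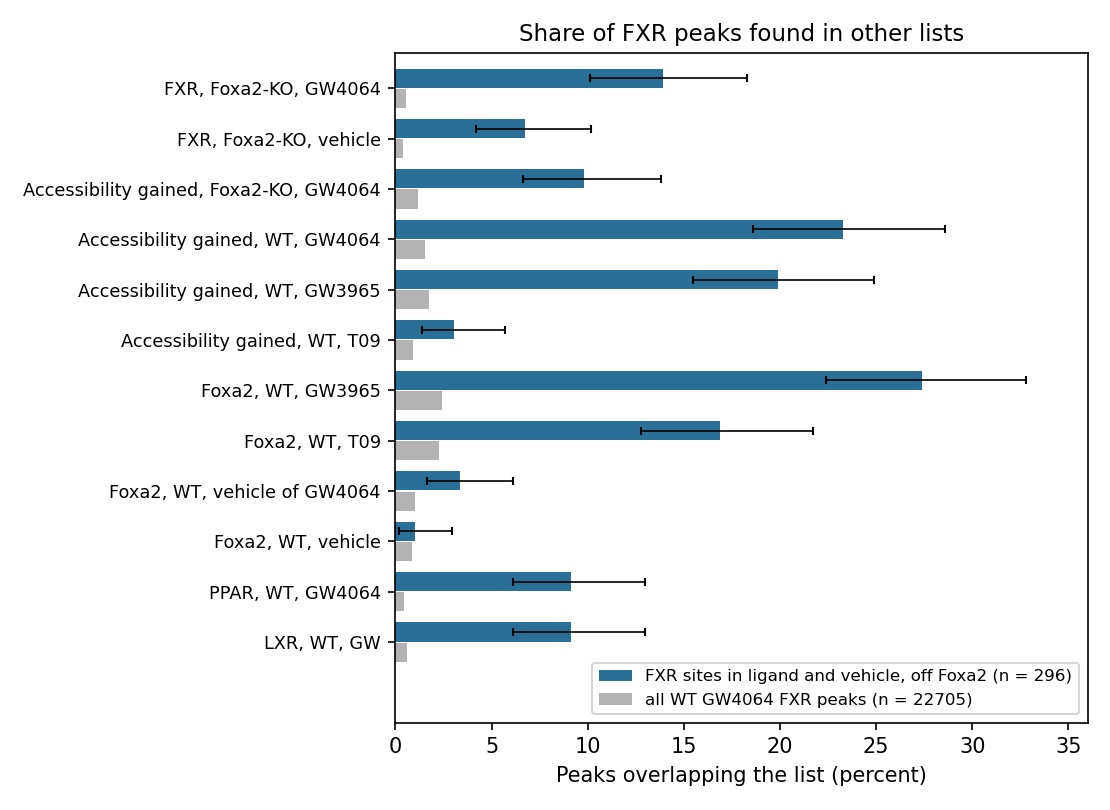
Percent of the 296 sites (blue, with exact 95% binomial intervals for counting alone) and of all 22705 GW4064 FXR peaks of WT liver (grey) that overlapped each list on the y axis by 1 base or more. The blue bar is the longer in every list shown, from 1.01% against 0.863% for Foxa2 with vehicle to 27.4% against 2.44% for Foxa2 with GW3965. The 2 sets were not matched for width, with medians of 208 bp at the sites and 58 bp over all peaks.

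The gained regions were far wider than the FXR peaks in them. In WT liver the regions at the 69 sites had a median width of 1564 bp, against 150 bp for all gained regions, so overlap with them is not a measure of opening at the bound bases. The Fcna site lay in a region of 2288 bp at place 53 of the WT list. The Fmo5 site (a flavin monooxygenase gene) lay in 3722 bp at place 132, Dio3 in 5269 bp at place 480, Slc6a6 in 2841 bp at place 1288, Akr1d1 in 2932 bp at place 2109 and Nr0b2 in 1504 bp at place 2718. None of these but Dio3 was in a region gained in Foxa2-KO liver, where the Dio3 region had an authors' fold of 1.14. Ak4 and Wwc2 sites were in regions gained in Foxa2-KO liver alone, with folds of 1.28 and 1.203. Over all 29 sites the authors' fold in Foxa2-KO liver had a median of 1.265, against 3.312 over all regions gained there. It ran from 1.07 to 4.01, the highest at an Olfr161 site in an LXR or PPAR list. The regions at the 29 sites had a median width of 1949 bp, against 132 bp over all regions gained there. These folds thus belong to regions of unlike width.

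Sites in regions gained in both genotypes, named after their values were seen, included those of Rgs3, Plpp2, Myo1c, Hsf2bp and Ero1b besides Dio3. Ero1b, an oxidase of the endoplasmic reticulum, had an authors' fold of 1.265 in Foxa2-KO liver and stood at place 787 in the WT list. Myo1c, a myosin gene, had 1.142 in Foxa2-KO liver and place 228 in the WT list. Arhgef7, Psen2 (a subunit of gamma secretase), Tmem169 and the kinase gene Dapk1 were in regions gained in WT liver alone, of 1098, 2141, 1588 and 1548 bp.

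Of the 29 promoter sites, 3 (10.3%) were in regions gained in Foxa2-KO liver and 5 (17.2%) in regions gained in WT liver. Regions gained in WT liver covered 59 sites (19.9%) after GW3965 and 9 (3.04%) after T09, against 1.74% and 0.938% of all GW4064 FXR peaks. Of the 69 sites gained with GW4064 in WT, 24 (34.8%) were also gained with GW3965, and Slc6a6 was one of these. FXR binding after the LXR agonists was not analysed here.

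Absence of Foxa2 held for the GW4064 list and not for every Foxa2 list. Of the 296 sites, 101 (34.1%) overlapped a peak of another Foxa2 list of WT liver, against 3.21% of all GW4064 FXR peaks. The GW3965 list held 81 (27.4%, against 2.44%), the T09 list 50 (16.9%, against 2.28%), the vehicle list of the GW4064 experiment 10 (3.38%, against 1.01%) and the other vehicle list 3 (1.01%, against 0.863%). The remaining 195 were in no Foxa2 list. All GW4064 FXR peaks were narrower (median 58 bp, against 208 bp), so they have fewer bases that can overlap a list. Of the 191 ligand-only peaks off Foxa2 in the first 500 entries, 12.0% were in the GW3965 list and 4.71% in the T09 list. A GW4064 Foxa2 peak lay within 250 bp of 14 sites without overlap, within 1 kb of 44 and within 10 kb of 137. These distances were not taken for all GW4064 FXR peaks, so nearness to Foxa2 is not shown to be particular to these sites. The Klf9 site was 493 bp from one, the Nr1i2 site 874 bp, the Akr1d1 site 264 bp and the Nr0b2 site 4255 bp, whereas the Slc51b site was 38999 bp and the Usp2 site 72694 bp away.

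The limits of the choice were narrow in places. The smallest vehicle overlaps inside were 1 base at Kcnab1 and Slc35b3 and 2 bases at Sva, and 9 sites had 10 bases or fewer. Just outside, vehicle peaks next to Slc4a3, Cdh20 and Gm4301 sites were 1, 2 and 3 bases away, and 86 GW4064 peaks off Foxa2 had a vehicle peak within 250 bp that did not overlap. On the side of Foxa2, the nearest sites inside were Aass at 18 bases, Lrp1 at 24 and Desi1 at 29, and the smallest overlaps outside were 6 bases at Myom1, 12 at Tcim and 20 at Mief2.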

How the data were processed

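The deposited peak lists of FXR, Foxa2, LXR and PPAR ChIP-seq and of ATAC-seq in mouse liver were used, 27 lists in all. RNA-seq was not used here. Reads were aligned to mm10 with BWA, per the submitters' processing notes, with the version not given in the sources used here. Peaks were called with PeakSeq, against input for ChIP and against vehicle for ATAC, per the labels of the series. Each group or comparison was deposited as 1 list, so samples of a group were pooled or merged before deposit. The fold, an enrichment ratio over the control, is the authors' own and is given as deposited for the Foxa2-KO lists. The q-value of each peak, where given, was deposited by the authors and was used for a stricter limit of 0.01. The -log10 of p was deposited by the authors in some lists and was not used. The WT FXR, Foxa2 and WT GW4064 ATAC lists hold positions without a score. The 2 Foxa2-KO FXR lists also held 28147 (vehicle) and 7254 (GW4064) blank lines, which were skipped.

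Positions were read as BED and are printed 1-based. Lists were compared by overlap of at least 1 base. A site took the name of the protein-coding gene it lies in, or of the nearest (RefSeq, GRCm38.p6). Gene lists were counted within 10 kb, and all 204 genes matched. Start sites were those of the RefSeq window table (250 bases before to 50 after), which is not complete, and 286 sites had one on their chromosome. Intervals are exact binomial (Clopper-Pearson) at 95% and cover counting alone. They treat sites as separate, although some came in runs or fell on the same peak of another list. The overlap step was tested on simulated data. Named sites were the first 20 outside regions listed for all 4 antibodies, all sites within 10 kb of a listed gene, and, in list order, up to 15 in a Foxa2-KO FXR list and up to 15 in gained regions. The result of 1 gene list is not reported here. Members and gene lists were chosen with earlier results of these data known. Alternatives were the overlap, the Foxa2 lists, list length, width, distance, q and regions shared by all antibodies. The FXR samples do not name an antibody product, and their route is given as oral gavage where the series text speaks of injection. Overlaps and counts were computed with pandas 2.3.3 and numpy 2.4.6 under python 3.11.15, intervals with scipy 1.17.1, and plots with matplotlib 3.10.9.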

Additional observations from a re-analysis of the deposited data

How the results depend on the processing

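Of 46 alternative values, 35 stayed within the counting interval of the value reported and 11 moved out of it or, for a count of genes, by over 1.5 times. The share of sites in the Foxa2-KO GW4064 FXR list (13.9%) became 8.72% for the 195 sites in no Foxa2 list, 6.3% without regions listed for all 4 antibodies and 2.07% without sites in an LXR or PPAR list, an alternative chosen after seeing the data. The share in the Foxa2-KO vehicle list (6.76%) became 2.59% without regions listed for all 4 antibodies, 1.24% without sites in an LXR or PPAR list and 3.72% with q of 0.01 or less in the Foxa2-KO list. For accessibility gained in Foxa2-KO liver, 9.8% became 4.05% with q of 0.01 or less, and for WT liver, which has no q, 23.3% became 28.6% among the first 500 entries. The PPAR WT GW4064 list, which held 9.12% of the sites, held 4.44% without regions listed for all 4 antibodies and 4.05% with q of 0.01 or less. The number of FXR target genes with a site went to 1, against 3, when sites in any Foxa2 list were left out. The cause of these changes was not tested. With at least 50% of the peak covered the sites numbered 259, and with peaks of 100 bp or more 274. No paired analysis was possible because each group was deposited as 1 list, and for the same reason no replicate could be left out.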

Other observations

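Sites that stood alone in the series numbered 96 (32.4%), against 92.2% of all GW4064 FXR peaks, and were in none of the lists other than the WT FXR lists. Among them were Gatd1, Zfp36, Il1r1, Nr1i2 and Slc51b. Sites of glucose and lipid genes, named after their values were seen, included Slc2a2, which encodes the liver glucose transporter. Its site was 188 bp wide at place 230 with GW4064 and 173 bp at place 262 with vehicle, and lay in a region gained with GW4064 in WT liver. Por, the reductase that serves the cytochromes P450, had a site of 208 bp at place 144 with GW4064 and 136 bp at place 1005 with vehicle. Sult2a1, a sulfotransferase gene of steroids and bile acids, held a site of 345 bp at place 1095 with GW4064 and 357 bp at place 267 with vehicle. Chromosome 4 held 34 of the 296 sites, the most of any chromosome, and 3 runs of 3 or more sites lay on it. These runs held 3, 7 and 4 of the sites. The share of all GW4064 FXR peaks on chromosome 4 was not taken.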
